A study of Mus musculus with 14 samples.

Results

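The peaks around 6 genes were described: *Prdm14*, *Tet1*, *Tet2*, *Dnmt3a*, *Dnmt3b* and *Dnmt3l*, a regulator and 5 enzymes or partners of enzymes that set the DNA methylation of the naive embryonic stem cell. They are 6 of the 22367 protein-coding genes of GENCODE vM1 on mm9. Every peak whose centre lay in the gene body or within 100 kb of either end was taken, from each of 8 lists of HOMER peaks, which gave 73 of 24416 peaks. The lists came from ChIP-sequencing in mouse ES cells grown for 26 h without tetracycline. In the clones A6, B8 and C4, removal of tetracycline switches on a FLAG-tagged *Sim2* transgene under the modified human CMV promoter hCMV*-1 of the ROSA-TET system, and the EB3 parental line lacks the *Sim2*-FLAG transgene. An anti-FLAG antibody was used in the 3 clones and in EB3, with 1 culture each, so that the clones serve as the replicates of SIM2 and EB3 as the negative control. The NANOG, OCT4, MED1 and MED12 lists used here came from clone A6, in a single library each, so their peaks have no replicate. The paper also describes ChIP of these factors in EB3. Those libraries were not used here, so levels in cells without SIM2-FLAG were not compared. RNA was not analysed here, and peak lists hold no expression by which the ES cell identity could be checked.

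PRDM14 is a zinc finger regulator that keeps ES cells in the naive state and is known to hold down the de novo DNA methyltransferases and FGF signalling. DNMT3A and DNMT3B place new methyl groups on cytosine, and DNMT3L is a partner without catalytic activity that stimulates both. TET1 and TET2 oxidise methylcytosine, which leads to its loss. NANOG and OCT4 are core pluripotency factors, MED1 and MED12 are subunits of the Mediator coactivator complex that gathers at strong enhancers, and SIM2 is a bHLH-PAS factor that binds DNA as a dimer with ARNT.

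A SIM2 site was defined by peaks of the clones with centres within 100 bp of each other, in at least 2 clones and with no EB3 peak. There were 1229 such sites in the genome, and 5 of them lay near the 6 genes, one each near *Prdm14*, *Tet1*, *Tet2*, *Dnmt3a* and *Dnmt3l*, where 13.4% of all protein-coding genes had such a site in the same window. The 200 bp around each centre are shown because the results turn on these 5 sites (mm9, forward strand, 5′ to 3′, with the motif matches described further on in capitals).
Prdm14, chr1:13074838-13075037: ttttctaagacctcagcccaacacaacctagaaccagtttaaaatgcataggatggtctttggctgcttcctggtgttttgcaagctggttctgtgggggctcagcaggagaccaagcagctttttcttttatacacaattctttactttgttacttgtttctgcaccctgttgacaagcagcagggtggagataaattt
Tet1, chr10:62356187-62356386: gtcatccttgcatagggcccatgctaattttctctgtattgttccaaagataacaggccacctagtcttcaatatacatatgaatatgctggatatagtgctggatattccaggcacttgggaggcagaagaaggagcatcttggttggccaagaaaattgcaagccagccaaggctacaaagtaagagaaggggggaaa
Tet2, chr3:133187526-133187725: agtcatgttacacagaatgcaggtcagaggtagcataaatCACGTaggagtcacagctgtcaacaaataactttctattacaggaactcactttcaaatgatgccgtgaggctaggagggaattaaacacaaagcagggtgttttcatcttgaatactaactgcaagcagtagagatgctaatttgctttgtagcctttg
Dnmt3a, chr12:3738881-3739080: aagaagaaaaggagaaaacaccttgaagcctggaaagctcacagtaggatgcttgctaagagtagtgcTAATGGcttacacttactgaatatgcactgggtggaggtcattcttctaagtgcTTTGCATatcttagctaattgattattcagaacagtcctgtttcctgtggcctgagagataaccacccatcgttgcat
Dnmt3l, chr10:77510927-77511126: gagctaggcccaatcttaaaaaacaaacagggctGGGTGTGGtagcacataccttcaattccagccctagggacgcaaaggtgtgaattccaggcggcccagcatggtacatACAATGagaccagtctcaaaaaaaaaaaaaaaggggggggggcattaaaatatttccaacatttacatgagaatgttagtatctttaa

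All 6 genes had a peak of SIM2 in A6, where 23.0% of all protein-coding genes had one in the same window, and all 6 had one in B8, against 19.8%. In C4, 2 of the 6 had a peak, *Prdm14* and *Dnmt3a*, against 6.06% of all genes. None of the 6 had an EB3 peak, against 1.14%. All 6 genes had a NANOG peak (67.6% of all genes) and an OCT4 peak (21.8%). MED12 was found near 5, all but *Dnmt3b* (10.9%), and MED1 near 4, all but *Dnmt3a* and *Dnmt3b* (7.98%). The lists differ in size, from 81 peaks in EB3 and 631 in C4 to 14815 in NANOG, and a gene without a peak is one where no peak passed the threshold of the authors' peak calling.

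**Figure D1:**
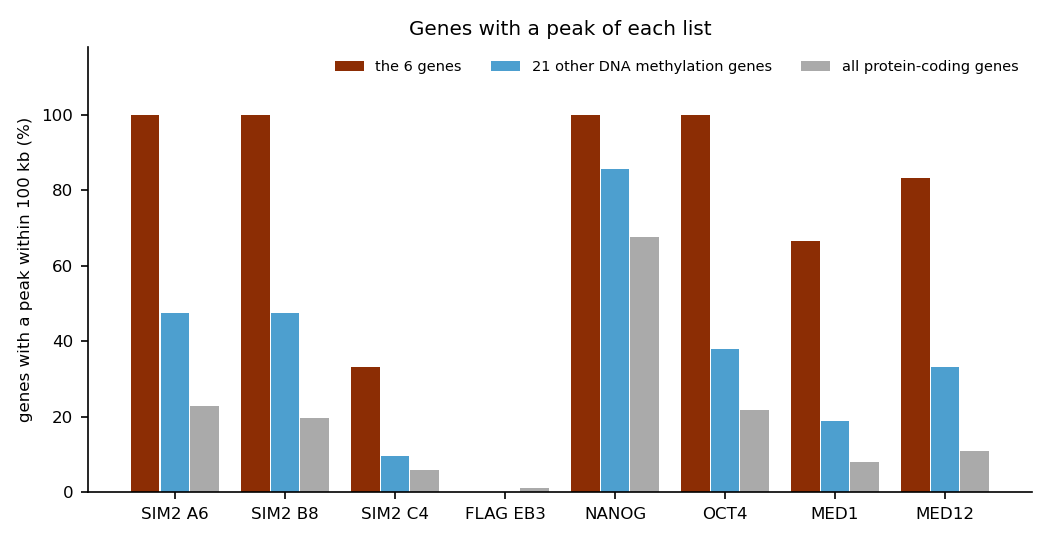
Percent of genes with at least 1 peak within 100 kb of the gene body (y axis, %) in each of the 8 lists (x axis), for the 6 genes (dark), 21 other genes of DNA methylation (blue) and all protein-coding genes (grey). The dark bars reach 100% in SIM2 A6, SIM2 B8, NANOG and OCT4, and the 6 genes and the 21 others have no EB3 peak.

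*Tet2* had the most peaks of all lists together, 19, followed by *Prdm14* with 16, *Tet1* and *Dnmt3a* with 11 each, *Dnmt3b* with 10 and *Dnmt3l* with 6. The median over all protein-coding genes was 2 peaks. The windows were not equally long, from 213707 bp at *Prdm14* to 308437 bp at *Dnmt3a*, and the gene bodies of the members were longer than 46.9% to 90.4% of all protein-coding genes, which gives *Tet1*, *Tet2* and *Dnmt3a* more room than most genes. Peaks of any list with edges within 100 bp were joined into places, and the 73 peaks fell into 32 places. Of these, 13 held NANOG alone, 13 held SIM2 in any clone (7 of them in 1 clone only) and 9 held OCT4. Mediator lay in 10 places, MED1 and MED12 together in 6 and MED12 alone of the pair in 4, and no place had MED1 without MED12. Of the 13 SIM2 places, 10 also had NANOG. The same shares over all 16642 places of the genome are not given here, so these counts only describe the windows.

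**Figure D2:**
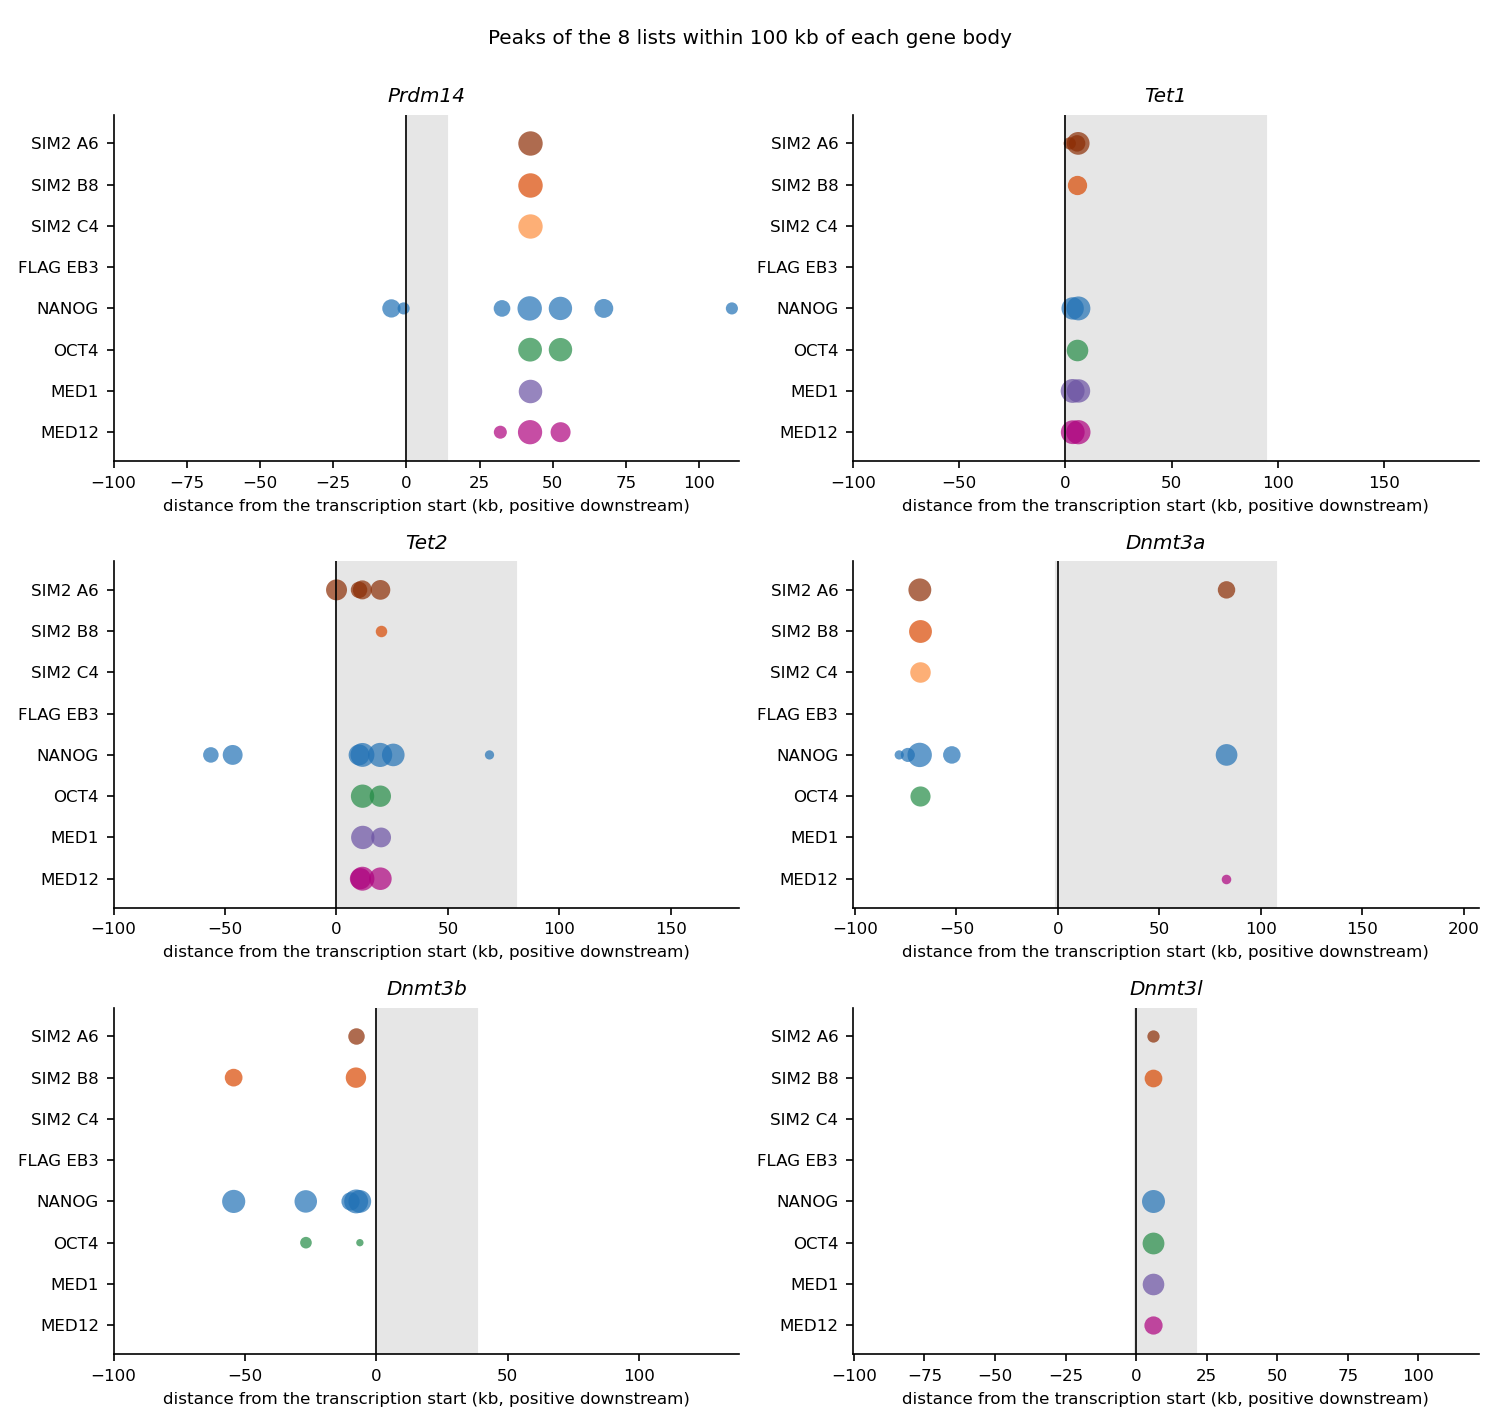
Position of every peak near the 6 genes, as distance from the transcription start in kb (x axis, positive in the direction of transcription), with 1 row for each list (y axis). Grey marks the gene body, and a larger point ranks higher in its own list by tags. The peaks of *Tet1* lie within 2.1 to 6.2 kb of its start, those of *Dnmt3l* at 1 place, and the strongest of *Prdm14* and *Dnmt3a* far outside the gene.

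Peaks at the transcription starts themselves were few. Of the 73 peaks, 2 lay within 1 kb of the start of the member, an A6 SIM2 peak at *Tet2* and a NANOG peak at *Prdm14*. The share of all peaks that close to a start is not given here. The paper also found few of its SIM2 sites in promoters, but it counted sites shared between clones and used a different window around the start. The SIM2 peak counted here, at *Tet2*, was held by A6 alone and was not a SIM2 site. The measures are therefore not alike, and whether the low count is particular to these genes was not tested. The other places were in introns of the member (mostly intron 1), in a neighbouring gene or between genes.

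The tag counts given below are the HOMER score of the peak, a whole number of tags in every list, with its 95% Poisson interval. They are compared only within a library, since depth and peak threshold differ between libraries. The lowest peak of a list had 20 tags in A6, 11 in B8, 11 in C4, 10 in NANOG, 23 in OCT4 and 14 in MED1 and MED12.

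The SIM2 site of *Prdm14* was among the strongest of every clone. It lay between genes, 42.3 kb downstream of the transcription start and 28.5 kb past the end of the gene, and *Prdm14* was still the gene with the nearest start. SIM2 had 73 tags there in A6 (57.2 to 91.8), 43 in B8 (31.1 to 57.9) and 31 in C4 (21.1 to 44.0). These peaks ranked 18 of 2387, 5 of 2137 and 7 of 631. By the normalized tag count in place of the score, the ranks were 17, 83 and 14. The fold over the input was 20.6 in A6, 14.1 in B8 and 14.0 in C4.

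All 4 factors of A6 met at this place, which spanned 457 bp. NANOG had 87 tags (69.7 to 107, rank 77 of 14815), OCT4 60 (45.8 to 77.2, rank 151 of 2532), MED1 35 (24.4 to 48.7, rank 63 of 762) and MED12 53 (39.7 to 69.3, rank 21 of 1071). By the normalized tag count the ranks were 36, 388, 72 and 36. By tags, the strongest *Prdm14* peak stood at percentile 91.5 or higher in each of the 7 lists in which it had one. The NANOG peak was centred 197 bp from the SIM2 site, on the side of the gene, and the OCT4, MED1 and MED12 peaks 64, 69 and 75 bp from it.

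Further downstream, 52.6 kb from the start, a place held NANOG with 39 tags, OCT4 with 55 and MED12 with 20, and no SIM2 peak of any clone. A MED12 peak of 15 tags lay 32.1 kb from the start, so that 3 places with Mediator stood in the 20577 bp between the first and last Mediator peak. At least 2 such places were found near 3 of the 6 genes (*Prdm14*, *Tet1* and *Tet2*) and near 4.13% of all protein-coding genes. The peak nearest to the start of *Prdm14* was a NANOG peak of 11 tags, 945 bp upstream, near the bottom of its list (rank 11866).

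At *Tet1*, the first of the oxidising enzymes, every peak of every list lay in intron 1, and no place held SIM2 with all 4 factors. The SIM2 site was 5.6 kb from the start, with 25 tags in A6 (16.2 to 36.9) and 14 in B8 (7.65 to 23.5), and no peak in C4. Its A6 and B8 centres were 100 bp apart, at the limit of the definition. OCT4 was there with 42 tags (rank 596), centred 53 bp from the site, and the nearest NANOG, MED1 and MED12 peaks were centred 567, 611 and 560 bp away.

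These 3 peaks belonged to the adjoining place, 6.1 kb from the start, where A6 alone had SIM2. There SIM2 had 40 tags (28.6 to 54.5, rank 342), NANOG 50 (rank 701), MED1 33 (rank 72) and MED12 50 (rank 25). Another place, 3.5 kb from the start, held NANOG with 29 tags, MED1 with 45 (rank 38) and MED12 with 37 (rank 62) and no SIM2. The MED1 peak there had the most MED1 tags near any of the 6 genes. At this place the fold over the local background was lower than that over the input, at 4.57 against 9.03 for MED12 and 4.68 against 13.4 for NANOG. The place 6.1 kb from the start showed the same. The values there were 4.05 against 9.41 for MED1, 6.01 against 14.64 for MED12 and 8.79 against 14.25 for NANOG.

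An A6 SIM2 peak of 22 tags, 2.1 kb from the start and the nearest of all to it, had no other factor. Its 200 bp held the letters AAGGTCA in 2 places, and they are shown for these matches (mm9, forward strand, matches in capitals).
Tet1 A6 peak, chr10:62359687-62359886: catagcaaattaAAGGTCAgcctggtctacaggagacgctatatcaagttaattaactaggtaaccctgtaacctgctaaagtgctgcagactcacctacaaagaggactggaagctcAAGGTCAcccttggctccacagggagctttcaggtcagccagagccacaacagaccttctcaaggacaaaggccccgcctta

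*Tet2* had 2 places where NANOG, OCT4, MED1 and MED12 were joined, both in intron 1. At the one 19.8 kb from the start, SIM2 had 29 tags in A6 (19.4 to 41.6) and 11 in B8 (5.49 to 19.7), the lowest tag count that the B8 list holds. NANOG had 58 tags there (rank 434), OCT4 41 (rank 640), MED12 27 (rank 172) and MED1 18 (rank 280). The MED1 peak was centred 294 bp from the SIM2 site and joined the place only through its neighbours. At the other, 11.7 kb from the start, SIM2 was found in A6 alone, with 28 tags, beside NANOG with 49 tags (rank 739), OCT4 with 54 (rank 250), MED1 with 33 (rank 72) and MED12 with 40 (rank 48). OCT4, MED1 and MED12 thus ranked higher at the place where only A6 had SIM2, and NANOG ranked higher at the place of 2 clones.

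Nearby, MED12 had a peak of 22 tags 10.7 kb from the start, and an A6 SIM2 peak of 25 tags met a NANOG peak of 22 tags 10.1 kb from it. The 3 Mediator places of *Tet2* covered 9291 bp from the first to the last peak centre. A further A6 SIM2 peak, of 32 tags (21.9 to 45.2, rank 672), was centred 15 bp from the transcription start, in the first exon, and no other list had a peak there. Neither B8 nor C4 had it. The window around it had 27 CpG and 68.5% G and C, against medians of 2 CpG and 47.5% over the 1229 SIM2 sites. Both A6 windows are shown, the first for its repeated TTTGCAT and the second for its CpG and its ACGTG (mm9, forward strand, matches in capitals).
Tet2 A6 peak in intron 1, chr3:133195665-133195864: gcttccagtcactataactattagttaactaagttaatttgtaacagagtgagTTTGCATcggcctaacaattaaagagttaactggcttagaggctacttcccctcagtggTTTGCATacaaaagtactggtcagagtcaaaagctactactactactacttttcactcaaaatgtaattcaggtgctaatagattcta
Tet2 A6 peak at the start, chr3:133207240-133207439: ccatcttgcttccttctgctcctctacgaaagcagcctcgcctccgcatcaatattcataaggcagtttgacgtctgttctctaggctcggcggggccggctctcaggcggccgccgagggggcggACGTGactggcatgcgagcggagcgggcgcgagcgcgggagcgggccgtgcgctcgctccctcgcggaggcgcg

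Of the de novo methyltransferases, *Dnmt3a* had the other site that all 3 clones held. It lay 68.1 kb upstream of the start, inside intron 12 of *Dtnb*, the dystrobrevin beta gene, whose start was nearer to it than that of *Dnmt3a*. SIM2 had 41 tags in A6 (29.4 to 55.6, rank 318), 19 in B8 (11.4 to 29.7, rank 293) and 14 in C4 (7.65 to 23.5, rank 199). NANOG was high there, with 81 tags (64.3 to 101, rank 108 of 14815), and OCT4 had 37 (rank 869). No MED1 or MED12 peak lay at this place.

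The 3 other *Dnmt3a* peaks outside the gene near this place were NANOG peaks of 10 to 15 tags, all in introns of *Dtnb*. Within *Dnmt3a* there was 1 place, in intron 6, where SIM2 in A6 alone had 26 tags, NANOG 25 and MED12 14, the lowest tag count of the MED12 list. It lay 83.1 kb from the start of the longest transcript and 1584 bp upstream of the start of a shorter *Dnmt3a* transcript.

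*Dnmt3b* was the member without a SIM2 site and without Mediator. SIM2 was found on its upstream side in both A6, with 25 tags (16.2 to 36.9), and B8, with 15 (8.4 to 24.7), but their centres were 122 bp apart, beyond the 100 bp allowed. They lay 7.7 kb upstream of the start on either side of a NANOG peak of 51 tags (rank 671), the highest of *Dnmt3b* by tags and level with the one 54.3 kb upstream by normalized tag count. The sequence under this NANOG peak is shown, since the A6 and B8 peaks both reach into it and none of the motifs searched occurs in it (mm9, forward strand).
Dnmt3b NANOG peak, chr2:153467456-153467655: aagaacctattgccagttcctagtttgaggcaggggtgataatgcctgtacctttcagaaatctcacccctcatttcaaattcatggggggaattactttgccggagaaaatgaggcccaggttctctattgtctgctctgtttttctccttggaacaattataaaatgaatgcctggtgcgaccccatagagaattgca
A B8 SIM2 peak of 13 tags met NANOG with 36 tags at 54.3 kb upstream, between genes, where the nearest start was that of *Commd7*. NANOG and OCT4 met at 2 places without SIM2, with 30 and 26 tags in *Commd7*, 26.8 kb upstream, and with 32 and 24 tags 6.2 kb upstream. Both OCT4 peaks were low in their list, at ranks 2079 and 2446 of 2532. The latter was the place nearest to the start of *Dnmt3b*.

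All 6 peaks of *Dnmt3l*, the partner of both, lay at 1 place of 291 bp in intron 2, 6.1 kb from the start of the longest transcript and 1503 bp upstream of the start of a shorter transcript. SIM2 had 22 tags in A6 (13.8 to 33.3) and 13 in B8 (6.92 to 22.2), with centres 13 bp apart, and no peak in C4. NANOG had 34 tags (rank 1879), OCT4 43 (rank 555), MED1 22 (rank 178) and MED12 18 (rank 505). The A6 SIM2 peak ranked low (1896 of 2387, percentile 16.5), whereas OCT4 and MED1 stood at percentiles 77.3 and 75.5 of their lists.

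**Figure D3:**
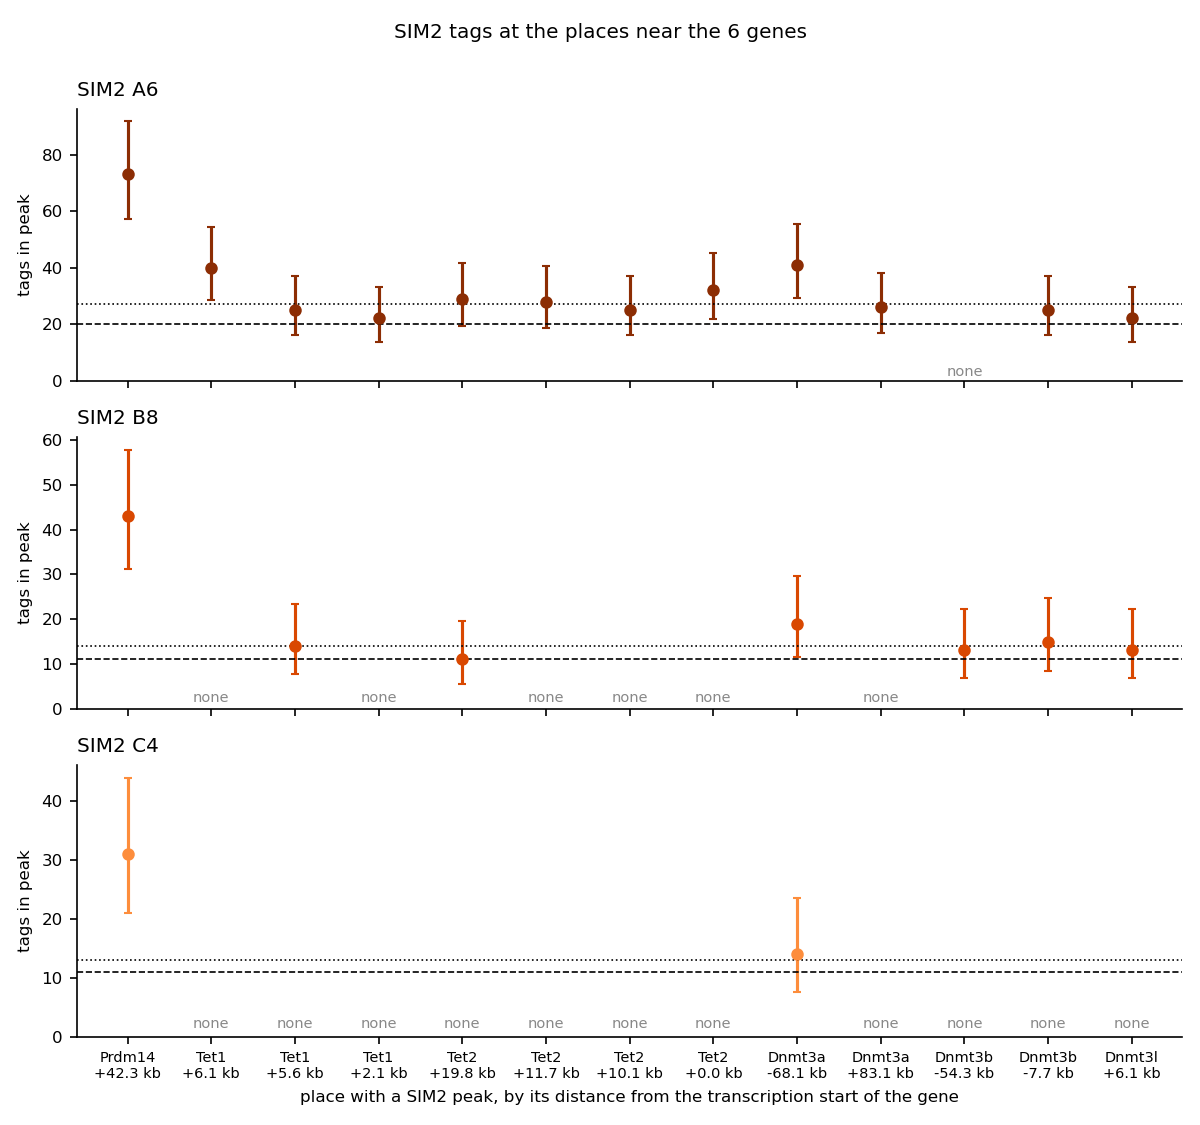
SIM2 tags in A6, B8 and C4 (panels, y axis from 0) at the 13 places near the 6 genes with a SIM2 peak in any clone (x axis, by gene and distance from the start). Bars are 95% Poisson intervals, the dashed line is the lowest and the dotted line the median tag count of the list, and "none" marks a place without a peak of that clone. The *Prdm14* point is highest in each panel.

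Within each clone the SIM2 tags of all pairs of member peaks were compared by a two-sided exact binomial test, adjusted by Benjamini-Hochberg over the pairs of that library. In A6, the 11 pairs that included the *Prdm14* peak passed, with adjusted p from 4.83e-06 to 0.0210, and none of the 55 other pairs did (lowest adjusted p 0.115). In B8, 6 of 21 pairs passed, and these were the 6 with *Prdm14*. By the normalized tag count the *Prdm14* peak was still the highest in B8, but by less. It had 9.5 there, and the other member peaks had 4.1 to 7.5, a difference that was not tested. In C4 the only pair, *Prdm14* against *Dnmt3a*, differed 2.21-fold (exact binomial test, adjusted p 0.0161). The order of the other SIM2 peaks was therefore not resolved at this depth. The test and the intervals cover counting error only, and they treat tags as independent.

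The strongest NANOG peaks fell in the order *Prdm14* 87 tags, *Dnmt3a* 81, *Tet2* 58, *Dnmt3b* 51, *Tet1* 50 and *Dnmt3l* 34. Of the 15 pairs 8 passed the exact binomial test, and none of the neighbours in this order did, with adjusted p of 0.750, 0.103, 0.653, 1 and 0.138. The ends differed 2.56-fold. For MED12, *Prdm14*, *Tet1* and *Tet2* with 53, 50 and 40 tags each exceeded *Dnmt3l* with 18 and *Dnmt3a* with 14, in 6 of 6 pairs (adjusted p 0.0089 or lower, exact binomial test), and no pair within either group passed. For OCT4, 2 of 15 pairs passed, *Prdm14* and *Tet2* against *Dnmt3b*. By the normalized tag count these OCT4 peaks were highest at *Tet1* (7.9), before *Prdm14* (7.6), and lowest at *Dnmt3b* (4.4). For MED1, 1 of 6 passed, *Tet1* against *Dnmt3l*, 2.05-fold with an adjusted p of 0.0404 by the exact binomial test. The strongest peak was taken from genes with unequal numbers of peaks.

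**Figure D4:**
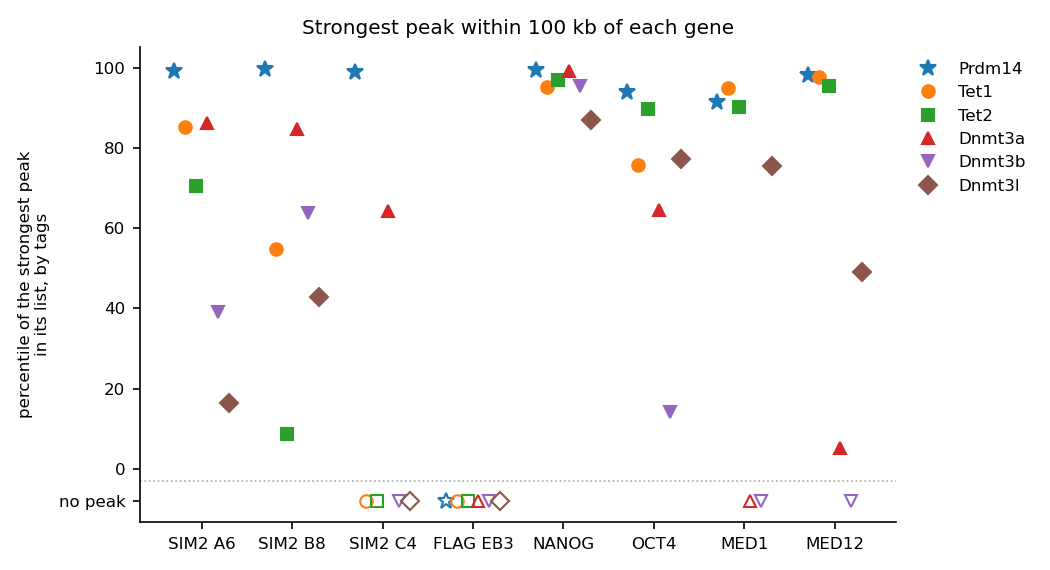
Percentile of the strongest peak within 100 kb of each gene among all peaks of its list, ranked by tags (y axis), for the 8 lists (x axis). Open symbols below the dotted line mark genes without a peak. *Prdm14* lies between 91.5 and 99.8 in the 7 lists in which it has a peak, and *Dnmt3b* has neither MED1 nor MED12.

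All 5 SIM2 sites near the members had OCT4 within 100 bp (95% Wilson interval 56.6% to 100%), against 46.2% of all 1229 sites. NANOG was at 4 of 5 (80%, 37.6% to 96.4%), all but *Tet1*, against 82.0%. MED12 was at 3 (60%, 23.1% to 88.2%), those of *Prdm14*, *Tet2* and *Dnmt3l*, against 28.6%, and MED1 at 2 (40%, 11.8% to 76.9%), those of *Prdm14* and *Dnmt3l*, against 12.0%. The intervals of NANOG, MED1 and MED12 cover the value of all sites. That of OCT4 lies above it, but it rests on 5 sites near genes chosen with earlier results of these data known. It is therefore not a test of the 6 genes. With a fold of 8 or more OCT4 was at 1 of 2 sites, and only 2 sites, both with OCT4, were left in all 3 clones, without A6 or without B8. From the side of NANOG, 4 of 27 peaks near the members had a SIM2 site within 100 bp (14.8%, 5.92% to 32.5%), against 6.80% of all NANOG peaks.

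A site of all 3 clones lay near 2 of the 6, *Prdm14* and *Dnmt3a*, and near 4.36% of all. A place with NANOG, OCT4, MED1, MED12 and SIM2 in 2 or 3 clones lay near 3 of the 6, *Prdm14*, *Tet2* and *Dnmt3l*, and near 1.64% of all. The 2 sites held by every clone thus differed in Mediator, which was present at that of *Prdm14* and not listed at that of *Dnmt3a*. These counts rest on A6 and B8: where A6 or B8 was left out and the other 2 clones had to share a site, only *Prdm14* and *Dnmt3a* had one, and without C4 the same 5 genes did.

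The peaks of the factors were not all centred on SIM2. Near the members the NANOG peaks that met the 100 bp rule were centred 68, 107, 145 and 197 bp from the SIM2 site, with a median of 126 bp, where the median over the 1008 such sites of the genome was 35 bp and 87.1% were within 100 bp. OCT4 was centred 43 to 74 bp away at the 5 sites (median 64 bp), against 32 bp over 568 sites. MED12 was centred 25 to 75 bp away at 3 sites. By centres within 100 bp, 1 of 5 sites had NANOG (*Dnmt3a*), 5 of 5 had OCT4 and 3 of 5 had MED1 or MED12.

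**Figure D5:**
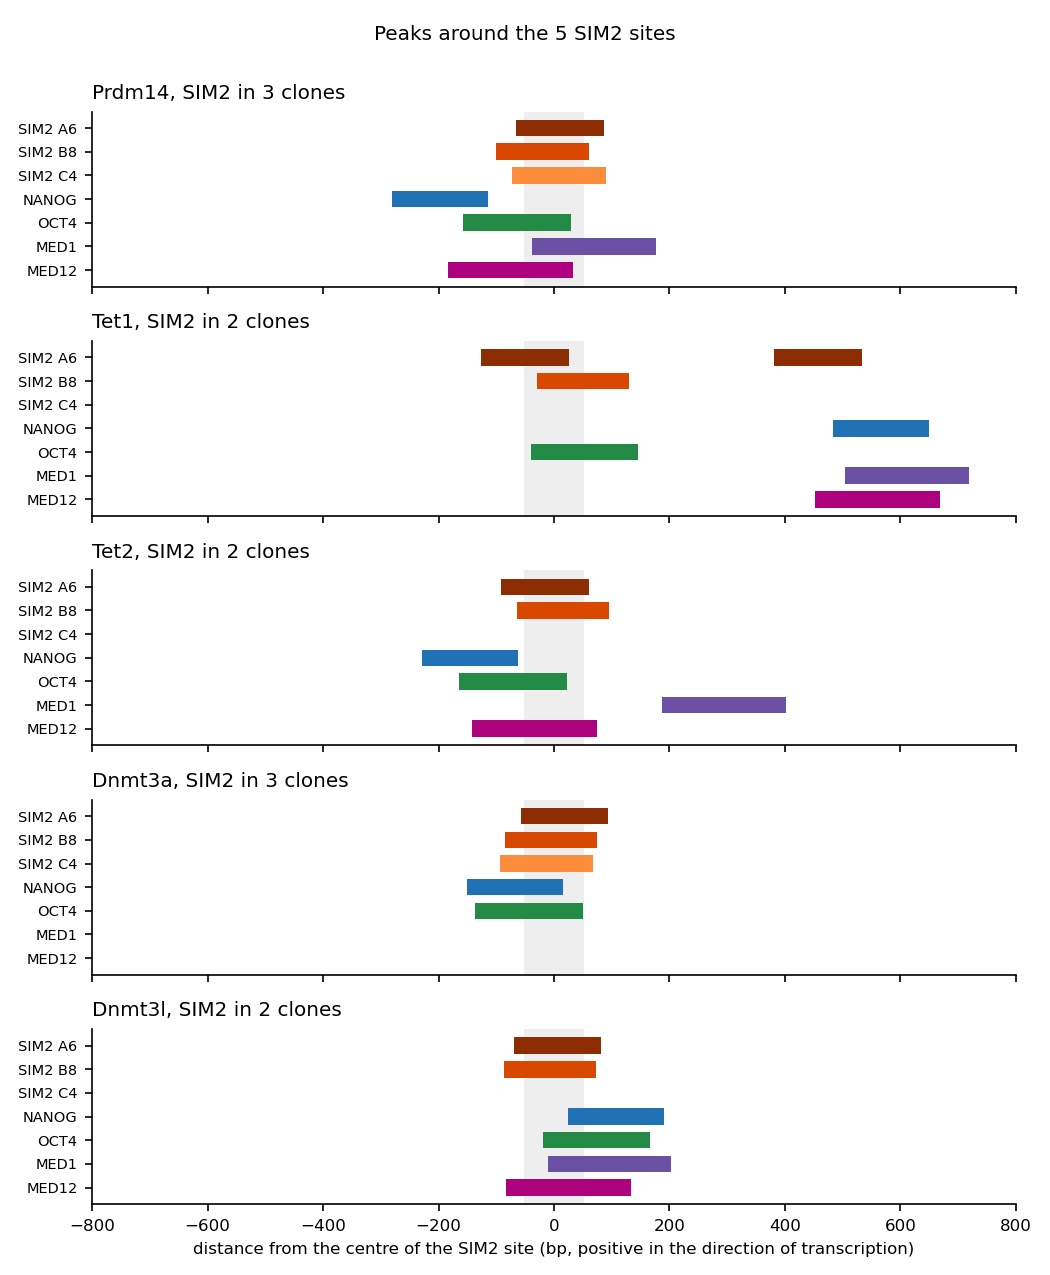
Extent of each peak (bars) around the centre of the 5 SIM2 sites, in bp and in the direction of transcription of the gene (x axis), with 1 row for each list (y axis). The grey band is the 100 bp site. OCT4 overlaps the band in all 5 panels, NANOG is set to one side in *Prdm14*, *Tet2* and *Dnmt3l*, and in *Tet1* it is centred 567 bp away beside a further A6 peak.

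The 200 bp windows were searched on both strands for the octamer ATGCAAAT, the OCT-SOX composite TTGTNATGC, the SOX element CATTGT, the NANOG core CCATTA, the bHLH-PAS core ACGTG, the KLF element GGGNGTGG and the nuclear receptor element AAGGTCA. No match overlapped another in the windows shown. None of the 5 sites held the octamer, the composite or the nuclear receptor element, which 7.40%, 4.72% and 12.0% of all SIM2 sites held. The bHLH-PAS core occurred at 1 of the 5, that of *Tet2*, 57 bp from the centre, against 14.1% of all SIM2 sites and 5.41% of all NANOG peaks. *Dnmt3a* held the NANOG core, 28 bp from the centre (9.68% of all sites), and *Dnmt3l* a SOX element 16 bp and a KLF element 61 bp from it (19.9% and 12.1%).

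*Prdm14*, where the tag counts were highest, and *Tet1* held none of the 7. The core of the octamer, ATGCAAA, was added after the sequences had been seen. It occurred at 1 of the 5 sites, *Dnmt3a*, 26 bp from the centre, and in 18.6% of all SIM2 sites, and 2 times in the A6 window of *Tet2* 11.7 kb from the start. Among the strongest NANOG peaks of the 6 genes, 2 held the SOX element (*Prdm14* and *Dnmt3l*) and 1 the NANOG core (*Dnmt3a*), against 21.7% and 11.6% of all NANOG peaks. A match here is of letters only.

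Of 21 other genes of the pathway, 8 had a SIM2 site, among them *Smug1*, *Mbd4*, *Gadd45a*, *Dppa3*, *Zfp57*, *Trim28* and *Cbfa2t2*. A NANOG peak was near 18, OCT4 near 8, MED12 near 7, MED1 near 4 and EB3 near none. The maintenance methyltransferase gene *Dnmt1* and its partner *Uhrf1*, which recognises hemimethylated DNA, had no SIM2 site. *Dnmt1* had a SIM2 peak in B8 only, and *Tet3* had 1 NANOG peak and no other. SIM2 with all 4 factors at 1 place was found near *Gadd45a*, *Zfp57*, a keeper of imprints, and *Trim28*, its corepressor.

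For 4 of the members the 8 percentiles of the strongest peaks were set beside those of genes over 1 Mb away, and the 3 at the smallest Euclidean distance were taken. For *Tet1* these were *Cd2bp2*, *Dctpp1* and *Gm17511* (distance 14.4), which are neighbours. *Dnmt3a* was nearest to *Foxp4* (13.2), *Utrn* (14.3) and *Mup4* (14.6), and *Dnmt3b* to *Arpp19*, *BC031353* and *Myo5a* (14.4). *Dnmt3l* stood farther from its nearest genes, *Il6st* (33.8), *Il31ra* (36.6) and *Eed* (37.4), the last a subunit of Polycomb repressive complex PRC2. The measure compares 8 lists and gives genes with shared peaks the same value.

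With a window of 50 kb the SIM2 site of *Dnmt3a* was lost, and 4 sites near 4 genes were left. At the edge of the 100 kb window, the farthest peak inside was a NANOG peak of 11 tags, 97458 bp past the end of *Prdm14*, and the nearest outside was a NANOG peak of 10 tags, 105988 bp from *Tet2*.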

How the data were processed

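The 8 deposited lists, 1 for each ChIP library, were used as the authors made them. Reads had been aligned by BWA to the mm9 assembly, and after removal of duplicates HOMER had called peaks against the matched input; the tool versions are not given in the sources used here. The authors' normalized tag count is a signal scaled to library size. The findPeaks score deposited for each peak is a whole count of tags, and it was used for ranks and tests, because the normalized tag count was a nearly constant multiple of it in A6 and EB3 and scattered around such a multiple in the other lists. The authors' focus ratio is a fraction, and HOMER's deposited ratio of ChIP to input tags, called fold here, comes with a p-value that the authors' run computed. Library depth is not stated in the lists, and the lowest peak held 10 to 23 tags. The input was at its floor value in 77.8% to 93.9% of the peaks of a list, which limits the folds.

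Genes and starts came from GENCODE vM1 on the same assembly, whose chromosome lengths contain every peak. The start of a gene is that of its longest transcript. Sites, nearness within 100 bp and places were computed as described in the results, with nearness measured between edges. Motifs were exact matches. The places named are those with a SIM2 peak, those with at least 2 of the 4 other factors, the highest NANOG peak and the peak nearest to the start of each member. The places with MED12 alone near *Prdm14* and *Tet2* and the further NANOG peaks in *Dtnb* were added after their values were seen. The genes most like *Prdm14* and *Tet2* and some details of the other genes are not reported here. The members, windows and lists of genes were chosen with earlier results of these data known. The steps were tested on simulated data. Alternatives changed the window, the merging, the fold, the EB3 filter, the clones and the nearness, and the measure by centres, the total tags of B8, the ranks by normalized tag count and the octamer core were added after seeing the data. The software was scipy 1.17.1, pandas 2.3.3, numpy 2.4.6 and matplotlib 3.10.9 under Python 3.11.15.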

Additional observations from a re-analysis of the deposited data

How the results depend on the processing

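Near the 6 genes, 60 of 77 recomputed counts and shares stayed within 1.5 times the count or within the interval of the share. This tally is a weak measure of stability. The intervals for the SIM2 sites rest on 5 sites and are wide, such as 37.6% to 96.4% for NANOG. Leaving out the EB3 filter could change nothing, since none of the 6 genes had an EB3 peak. The 73 peaks became 60, 81 and 72 with windows of 50 kb, of 200 kb and around the start only. The window of 50 kb left 4 sites near 4 genes, without that of *Dnmt3a*. With a fold of 8 or more, 33 peaks remained and 2 sites near 2 of the genes, *Prdm14* and *Dnmt3a*, with NANOG at 100% and OCT4 at 50% of the sites. Sites in all 3 clones were 2, near 2 genes, with NANOG at 100%. Leaving out 1 clone gave 2 to 5 sites near 2 to 5 genes and a NANOG share of 80% to 100%. The value was 2 without A6 and without B8, and 5 without C4. Merging within 200 bp made 6 sites and added *Dnmt3b*. With nearness of 500 bp NANOG was at 100% and MED1 or MED12 at 80% of the sites. By centres within 100 bp NANOG was at 20% and MED1 or MED12 at 60% of the sites. A SIM2 site was then at 3.7% of the NANOG peaks near the members. The rank of the *Prdm14* SIM2 peak in B8 moved from 5 to 83 by the normalized tag count. The total tags of B8 gave the same number of pairs past the threshold, 6 of 21. The pairs were not tested by the normalized tag count. The causes were not tested. No paired analysis was possible because the inputs that share clones with the SIM2 libraries entered only as controls of the authors' peak calling, and no list of an input was used here. Few tags limit what can be seen. Peaks near the lowest tag count of a list, such as those of *Tet2* and *Dnmt3l* in B8, could be missing from the next clone. C4, with 631 peaks, lists the fewest of the 3 clones. Library depth is not stated in the lists, and its part in this was not tested.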
